A study of Mus musculus with 2 samples.

Results

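The osteoblast transcription factors examined here were Runx2, Sp7, Dlx3, Dlx5, Dlx6, Atf4, Msx1 and Msx2, 8 of the 28006 features counted in the libraries, chosen by their symbols and not by their levels. They were followed in single Cxcl12-GFP+ cells of mouse femurs, from reticular-like marrow stromal cells through preosteoblast-like to osteoblast-like cells, and in periosteal-like cells. The cells came from 2 mice, Mouse #1 and Mouse #2, with 1 10x Genomics 3' library each. Both mice were at postnatal day 28, had received tamoxifen at postnatal day 21 and had the genotype Cxcl12(GFP/+); Cxcl12-iCreER; R26R(tdTomato/+), so all comparisons were between cells of the same 2 animals. eGFP reports Cxcl12 from 1 allele of the gene. The recombinase came from a separate bacterial artificial chromosome transgene with Cxcl12 sequences, which need not act in every Cxcl12-expressing cell, and tdTomato marks cells in which it had acted and their descendants. The study describes the sort as gated on cells high in GFP, which limits how many cells low in Cxcl12 could enter, and 1 protocol label names a tdTomato+ sort while the cell type label names GFP+ cells. The distal growth plates and the proximal ends of the femurs had been removed.

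Runx2 is a runt-domain factor that binds DNA together with its partner Cbfb and commits mesenchymal cells to the osteoblast lineage, and Sp7 (osterix) is a zinc finger factor needed after it for osteoblasts to form. The distal-less homeodomain proteins Dlx3, Dlx5 and Dlx6 and the muscle segment homeodomain proteins Msx1 and Msx2 act in skeletal patterning and in the response to bone morphogenetic proteins, and they bind similar AT-rich DNA. Atf4 is a leucine zipper factor that serves amino acid supply and collagen production in osteoblasts, and it is largely controlled through translation of its mRNA.

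All 8 are protein-coding genes in the GENCODE M21 annotation of GRCm38. Runx2 spans chr17:44495987-44814797 on the minus strand, Sp7 chr15:102356606-102367182 on the minus strand, Dlx3 chr11:95120119-95125296 on the plus strand and Atf4 chr15:80255184-80257541 on the plus strand. Dlx6 at chr6:6863334-6868568 on the plus strand and Dlx5 at chr6:6877805-6882085 on the minus strand are neighbors that are transcribed toward each other. Msx1 lies at chr5:37820485-37824583 and Msx2 at chr13:53466884-53473074, both on the minus strand. Transcripts annotated on the other strand overlap Runx2 (Runx2os1, Runx2os2, Runx2os3 and Supt3) and Dlx6 (Dlx6os1 and Dlx6os2), and whether counting used the strand was not given in the sources used here.

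The 250 bases before the start site were held for 4 of the 8 genes in the RefSeq table used here (GRCm38.p6). They are shown because Runx2, Msx1 and Atf4 took different courses across the classes, and because homeodomain proteins are among the 8. The Atf4 (chr15:80254934-80255183, plus strand) and Msx1 (chr5:37824586-37824835, minus strand) windows lie outside the GENCODE genes and are printed whole, 5' to 3'. Capitals mark a GC box (GGGCGG, on either strand), the letters that Sp family zinc finger proteins bind.
Atf4: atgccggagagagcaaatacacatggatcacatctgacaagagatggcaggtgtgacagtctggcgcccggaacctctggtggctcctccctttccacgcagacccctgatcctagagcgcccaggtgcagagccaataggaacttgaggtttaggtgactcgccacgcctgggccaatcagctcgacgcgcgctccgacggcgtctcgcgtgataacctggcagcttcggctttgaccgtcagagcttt
Msx1: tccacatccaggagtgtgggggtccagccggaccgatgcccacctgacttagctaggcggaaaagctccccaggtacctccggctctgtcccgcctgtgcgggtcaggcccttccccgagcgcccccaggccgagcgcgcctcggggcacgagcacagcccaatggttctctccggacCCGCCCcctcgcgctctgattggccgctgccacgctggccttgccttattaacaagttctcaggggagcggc
The Runx2 and Msx2 windows lie in part (170 bases) and wholly inside the GENCODE genes, so only 30 bases around matches are printed (chr17:44814690-44814719 and chr13:53472941-53472970, both minus strand). Capitals mark a RUNX site (TGTGGT, read here from the other strand) and homeodomain core letters (TAATT, on either strand, with overlapping matches in TAATTA).
Runx2: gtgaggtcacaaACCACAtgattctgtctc
Msx2: ctgTAATTAactccTAATTtatttcaaacg
The Runx2 match began at position -80 from the start site, and 14.0% of the 32851 promoter windows in the table held such a match. The Msx1 GC box began at -72, and Msx2 held another at -160, against 32.7% of all windows. TAATT matches began at -187, -186 and -176 in Msx2 and are found in 25.03% of windows. No window of the 4 genes held the composite letters TGATGNAA that Atf4 binds with C/EBP proteins (3.45% of all windows), and the Atf4 window held none of the 4 motifs. These are matches of letters, not measured binding.

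A barcode counted as a cell with 1000 genes or more and no more than 15% of its UMIs (unique molecular identifiers, 1 per captured transcript) from mitochondrial genes. This kept 2750 cells of Mouse #1 and 4582 of Mouse #2, from libraries of 54940400 and 88790688 UMIs. The median cell held 12966.5 and 12190 UMIs, and 7 cell barcodes occurred in both libraries. Clusters made without the 8 genes were named from marker lists and gave 1240 and 2405 reticular-like cells (8 of 8 markers raised), 427 and 812 preosteoblast-like cells (7 of 8), 14 and 61 osteoblast-like cells (7 of 8) and 74 and 232 periosteal-like cells (5 of 8). In periosteal-like cells the 8 preosteoblast markers summed to 14307 and 13965 UMIs per 1000000 UMIs of the class (CPM), against 14331 and 15872 CPM in the preosteoblast-like cells. This sum includes Col1a1, which was among the 10 most abundant genes of the periosteal-like but not of the preosteoblast-like cells in both mice. Col1a1 was also not among the 7 markers raised in the preosteoblast-like cells, so like sums need not mean like levels of each marker. The osteoblast-like cells held chondrocyte markers at a summed 501 and 1023 CPM, with 4 and 3 of the 7 measured markers at 0, beside osteoblast markers at a summed 99883 and 65804.5 CPM. The reticular-like clusters were unevenly filled, with 32.0% of these cells in Mouse #1 and 10.7% in Mouse #2 in the cluster led by Lsmem1 and Rgs16, and 13.7% and 24.9% in the cluster led by the heat shock genes Hspb1 and Hspa1b.

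Runx2 was transcribed in every skeletal class. Its level in Mouse #1 and Mouse #2 was 225 and 208 CPM in reticular-like cells, 302 and 313 CPM in preosteoblast-like cells, 128 and 138 CPM in osteoblast-like cells and 93.6 and 112 CPM in periosteal-like cells. Endothelial-like cells held 11.01 and 27.2 CPM, and hematopoietic cells, which gave the background, 27.9 and 31.4 CPM. The order by mean was 307 ± 7.73 (SD, n = 2) in preosteoblast-like, 216 ± 12 in reticular-like, 133 ± 7.0 in osteoblast-like and 103 ± 12.8 CPM in periosteal-like cells. No neighbors in this order of CPM overlapped. In UMIs per cell Runx2 was instead higher in osteoblast-like (4.79 and 6.18) than in reticular-like cells (2.97 and 2.61). The preosteoblast-like class was thus highest in CPM, and reticular-like cells stood well above the hematopoietic background in both mice.

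Sp7 was high in preosteoblast-like and osteoblast-like cells and low in the other classes. Reticular-like cells held 9.59 and 7.03 CPM, preosteoblast-like cells 110 and 93.7 CPM, osteoblast-like cells 176 and 160 CPM and periosteal-like cells 8.17 and 7.76 CPM. The levels of reticular-like and periosteal-like cells overlapped, while the other classes stood apart in both mice. Hematopoietic cells held 2.49 and 2.29 CPM, below all 4 skeletal classes.

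Dlx3 was highest in osteoblast-like cells, at 61.3 and 28.2 CPM from 32 and 77 UMIs, of 76 and 146 Dlx3 UMIs in all cells. Preosteoblast-like cells held 2.50 and 2.53 CPM from 18 and 37 UMIs, and reticular-like cells 0.367 and 0.597 CPM from 6 and 18 UMIs. The order of these classes was the same in both mice, although the osteoblast-like levels themselves differed between the mice beyond counting error (95% Poisson intervals 41.9 to 86.5 and 22.3 to 35.3 CPM, which cover counting error only).

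Dlx5 was highest in preosteoblast-like cells, with 156 and 142 CPM, followed by reticular-like cells with 80.8 and 70.0 CPM. Osteoblast-like cells had 59.3 and 56.4 CPM and periosteal-like cells 23.0 and 34.8 CPM, and in CPM the 4 classes did not overlap. In UMIs per cell Dlx5 was instead higher in osteoblast-like (2.21 and 2.52) than in reticular-like cells (1.07 and 0.878). Dlx6, its neighbor on chromosome 6, had 47.1 and 54.8 CPM in preosteoblast-like and 44.0 and 25.6 CPM in osteoblast-like cells. Reticular-like cells had 17.3 and 13.5 CPM and periosteal-like cells 11.9 and 10.9 CPM of Dlx6, the latter close to the former. The antisense partner Dlx6os1 held 4.70 and 6.202 CPM in reticular-like, 14.0 and 18.8 CPM in preosteoblast-like and 5.74 and 5.86 CPM in osteoblast-like cells. Like Dlx6, it was higher in preosteoblast-like than in reticular-like cells of both mice, and reads of the pair cannot be told apart if the counting ignored strand.

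Atf4 had the flattest course over the skeletal classes in CPM, and it was also found outside them. It reached 276 and 235 CPM in the reticular-like, 197 and 216 CPM in preosteoblast-like, 232 and 284 CPM in osteoblast-like and 249 and 241 CPM in periosteal-like cells. Endothelial-like cells held 294 and 284 CPM and hematopoietic cells 150 and 131 CPM. The reticular-like, osteoblast-like and periosteal-like levels in CPM overlapped, and only hematopoietic cells were below all skeletal classes in both mice. In UMIs per cell Atf4 was highest in osteoblast-like cells of both mice (8.64 and 12.7, against 3.64 and 2.95 in reticular-like cells).

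Msx1 had an order of its own, with the highest levels outside the osteoblast series. Endothelial-like cells held 86.0 and 82.2 CPM, preosteoblast-like cells 47.5 and 55.2 CPM, reticular-like cells 34.0 and 40.8 CPM and periosteal-like cells 29.7 and 49.997 CPM. Osteoblast-like cells held 1.91 and 8.79 CPM, from 1 and 24 UMIs, near the 2.34 and 4.42 CPM of hematopoietic cells. Msx2 was rarely captured, with 9 UMIs in all cells of Mouse #1 and 35 in those of Mouse #2. Of these, 6 and 22 were in preosteoblast-like, 2 and 3 in reticular-like and 0 and 4 in osteoblast-like cells. The 0 UMIs of Msx2 in the osteoblast-like cells of Mouse #1 allow a level of up to 5.74 CPM, so that no order between these cells and the preosteoblast-like cells (0.834 and 1.502 CPM) could be detected at this depth.

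**Figure D1:**
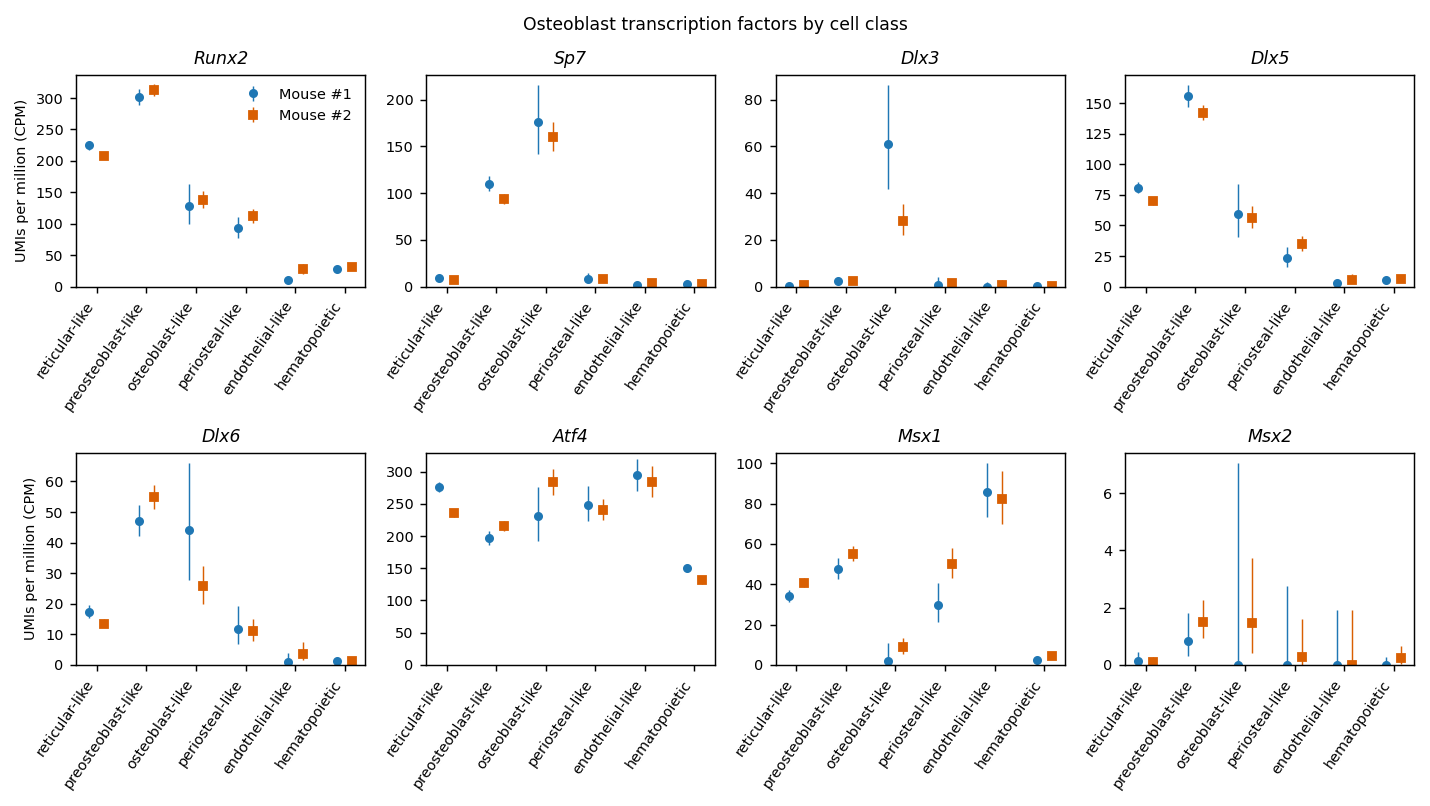
Levels of the 8 genes (CPM, vertical axis) in 6 cell classes (horizontal axis) of Mouse #1 (circles) and Mouse #2 (squares), with 95% Poisson intervals that cover counting error only. Runx2 and Dlx5 were highest in preosteoblast-like cells of both mice, Dlx6 in those of Mouse #2 with overlapping intervals against osteoblast-like cells in Mouse #1, Sp7 and Dlx3 in osteoblast-like cells, and Msx1 in endothelial-like cells.

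The share of cells with a UMI gave the same order for most genes once each cell was thinned at random to 2000 UMIs. Runx2 was detected in 33.1% and 31.8% of reticular-like and 43.6% and 45.9% of preosteoblast-like cells, while hematopoietic cells had it in 5.40% and 6.48%. Sp7 was detected in 1.94% and 1.499% of reticular-like, 19.7% and 18.5% of preosteoblast-like and 42.9% and 24.6% of osteoblast-like cells, with 0.277% and 0.845% in hematopoietic cells. The Sp7 share of reticular-like cells was thus low. Its 95% Wilson interval lay above the hematopoietic one in Mouse #1 (1.31 to 2.87% and 0.076 to 1.00%), while the intervals overlapped in Mouse #2 (1.09 to 2.07% and 0.388 to 1.83%). Without thinning, Runx2 was found in 83.6% and 82.6% of reticular-like, 90.9% and 93.5% of preosteoblast-like and 85.7% and 95.1% of osteoblast-like cells, and Sp7 in 9.52% and 6.49%, 67.2% and 64.9%, and 92.9% and 95.1% of the same classes. Hematopoietic cells then had Runx2 in 19.2% and 22.3% and Sp7 in 3.73% and 2.95% of cells, with median depths of 12811 and 10621.5 UMIs against 12430 and 11622 UMIs in reticular-like, 15201 and 16222 UMIs in preosteoblast-like and 32968.5 and 46370 UMIs in osteoblast-like cells. Of the 8 genes, a thinned cell held on average 0.989 and 0.935 in the reticular-like class, 1.35 and 1.45 in the preosteoblast-like class and 0.635 and 0.762 in the periosteal-like class, against 0.319 and 0.310 in hematopoietic cells. Free RNA in barcodes of 1 to 100 UMIs held Runx2 at 186 and 202 CPM and Sp7 at 43.7 and 39.6 CPM, and its part in these shares was not tested.

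Detection of Runx2 together with Sp7 or Dlx5 was counted within the preosteoblast-like class. Among thinned cells with a Runx2 UMI, 22.6% in Mouse #1 and 21.6% in Mouse #2 also held an Sp7 UMI, against 17.4% and 16.0% of cells without a Runx2 UMI. Dlx5 was held by 27.4% and 27.8% of cells with and 23.2% and 23.1% of cells without a Runx2 UMI. Both shares were thus higher in cells with a Runx2 UMI in both mice. The 95% Wilson intervals of each pair overlapped in both mice (for Sp7 17.2 to 29.1% against 13.2 to 22.7% in Mouse #1, and 17.7 to 26.03% against 12.8 to 19.7% in Mouse #2). Overlap of intervals is not a test of a difference, and an association was not tested.

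The step from reticular to preosteoblast cells was tested on the summed UMIs of each class in each mouse, so that n was 2 mice, by the quasi-likelihood test of edgeR with p-values adjusted by Benjamini-Hochberg over all 12163 genes tested. Sp7, Dlx3, Dlx6, Dlx5 and Runx2 rose, 5 of the 7 members tested, where 24.6% of all tested genes were called (22.6% of genes outside the clustering genes). Sp7, the factor needed downstream of Runx2, rose by a log2 fold change of 3.58 ± 0.16 (SE; edgeR adjusted p 2.45e-06). Dlx3 rose by 2.24 ± 0.46 (edgeR adjusted p 0.00713) from few UMIs (1.67 in Mouse #1 and 1.38 in Mouse #2 with 0.5 added to each TMM-scaled CPM, as for all fold changes of 1 mouse), and Dlx6 by 1.69 ± 0.19 (edgeR adjusted p 0.000254) on the log2 scale. Dlx5, which acts upstream of Sp7 in osteoblasts, rose by 0.93 ± 0.14 (edgeR adjusted p 0.00141). Runx2 itself rose least, by 0.46 ± 0.13 (edgeR adjusted p 0.0321), with 0.36 in Mouse #1 and 0.55 in Mouse #2. The median log2 fold change of the 7 tested members was 0.93, beside 0.03 over all tested genes, and Msx2 did not pass the filter on low counts.

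Msx1 and Atf4 did not pass the test at this step. The Msx1 log2 fold change was 0.41 ± 0.22 with a 95% interval of -0.08 to 0.91 (edgeR adjusted p 0.213), with the preosteoblast-like level above the reticular-like level in both mice. The Atf4 value was -0.36 ± 0.16 (edgeR adjusted p 0.132), lower in both mice, at -0.55 and -0.16. In UMIs per cell the mice differed in direction, with Atf4 at 3.64 in reticular-like and 3.32 in preosteoblast-like cells of Mouse #1, and 2.95 and 3.89 in Mouse #2. The Runx2 call was lost when cells needed 2000 genes and under 10% of UMIs from mitochondria (0.40, edgeR adjusted p 0.0624), and Atf4 was called lower by DESeq2 (-0.39, DESeq2 adjusted p 0.0492).

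**Figure D2:**
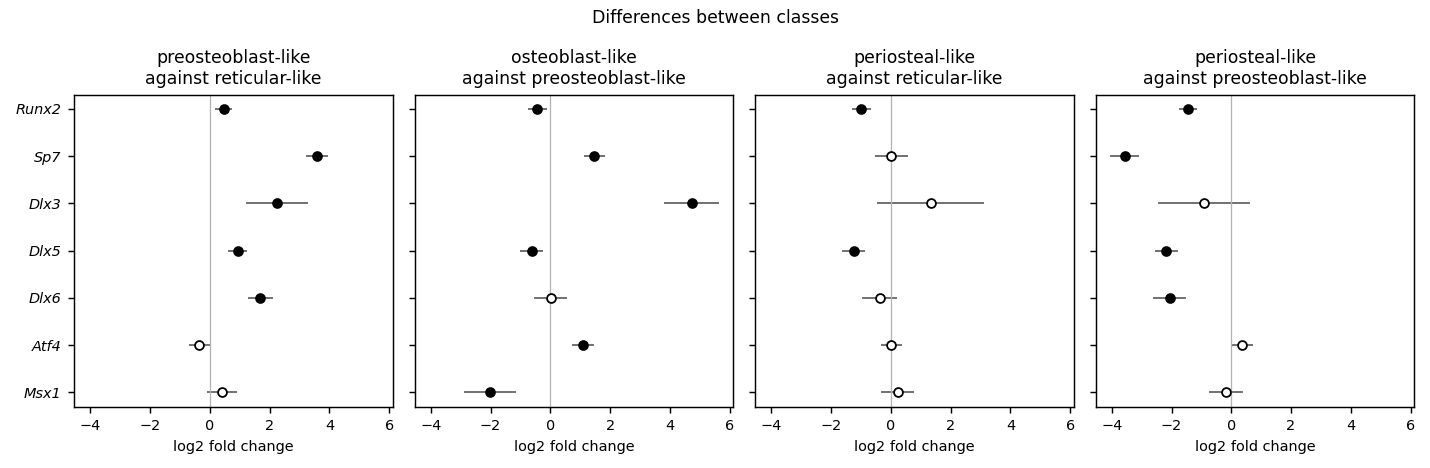
Log2 fold changes of the 7 tested genes in 4 comparisons of classes (horizontal axis), with 95% intervals from edgeR and n = 2 mice. Filled points passed the edgeR test at an adjusted p under 0.05 and open points did not. Sp7 stood at 3.58 and Dlx3 at 2.24 in the preosteoblast-like against the reticular-like class, and the reticular-like and preosteoblast-like sums each enter more than 1 panel.

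Of the relatives of the members in the same families, 2 of 12 tested were higher and 1 lower, a share close to the 24.6% of all tested genes called. Sp6, a zinc finger factor of the Sp7 family, rose by 4.18 on the log2 scale, while Runx1, the runt factor needed for blood stem cells to form, fell by 0.97 and Runx3 rose by 0.46. Of 17 partners and inhibitors of Runx2, 4 were higher and 4 lower (47.1% called beside 24.6%). Hey1, a Notch target that restrains Runx2, rose by 2.02, whereas Zbtb16 fell by 2.32, Twist2, an inhibitor of the Runx2 DNA-binding domain, fell by 2.08 and Hes1 fell by 1.24. The medians of these lists were -0.21 and -0.05, and each list moved in both directions.

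Other osteoblast-lineage transcription factors were higher in 7 of 20 cases and lower in 3 (10 of 20 called beside 24.6% of all tested genes). The Wnt pathway factors Lef1 and Tcf7 rose by 4.68 and 1.83, and Mef2c rose by 2.38. Of 16 tested Atf4 target genes, 8 were higher and 2 lower (62.5% called), with a median of 0.55. Vldlr rose by 2.93, Slc7a5, an amino acid carrier, by 1.96 and Psat1, an enzyme of serine synthesis, by 1.82, and Chac1 rose by 3.16 from levels under 1 scaled CPM. Vldlr is a lipoprotein receptor and Chac1 an enzyme that degrades glutathione. The reticular and adipocyte transcription factors fell in 7 of 9 cases with none higher (77.8% called), and their median was -0.71. Among them Pparg fell by 1.55, Cebpb by 1.17, Ebf3 by 1.15 and Cebpa by 1.12.

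Levels were also followed along a marker index. The index is the share of preosteoblast marker UMIs among preosteoblast and reticular marker UMIs of a cell, in 9 bins, for 1665 and 3263 reticular-like, preosteoblast-like and osteoblast-like cells with at least 20 such UMIs. It describes an order of cells by their markers and not time. Sp7 lay at 6.32 and 6.03 CPM in the lowest bin (0 to 0.05), at 35.3 and 13.1 CPM in the bin from 0.2 to 0.4, at 81.3 and 50.9 CPM from 0.4 to 0.6 and at 137 and 133 CPM in the highest bin (0.95 to 1). Runx2 was already at 189 and 185 CPM in the lowest bin, stood at 345 and 331 CPM from 0.6 to 0.8 and at 221 and 189 CPM in the highest bin. Sp7 thus gained most of its level across the middle bins, while Runx2 in CPM was lower at both ends. In UMIs per cell Runx2 had no such fall, with 2.46 and 2.44 in the lowest bin, 6.13 and 6.12 from 0.8 to 0.9 and 6.56 and 6.32 in the highest bin.

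In CPM Dlx5 took a course like that of Runx2, from 74.0 and 71.9 CPM in the lowest bin to 167 and 180 CPM from 0.6 to 0.8 and 89.3 and 57.6 CPM in the highest bin. Unlike Runx2, Dlx5 was also lower in the highest bin in UMIs per cell (2.64 and 1.93). Its highest values were 3.30 from 0.8 to 0.9 in Mouse #1 and 2.95 from 0.6 to 0.8 in Mouse #2. Dlx6 went from 15.8 and 10.2 CPM to its highest mean of 60.5 CPM in the bin from 0.9 to 0.95 (46.5 and 74.4 CPM). In Mouse #1 it was highest from 0.8 to 0.9, at 57.0 CPM. The highest bin held Dlx6 at 47.3 and 31.0 CPM. In UMIs per cell Dlx6 was highest in the highest bin in Mouse #1 (1.40) and from 0.9 to 0.95 in Mouse #2 (1.37). With Col1a1 left out of the index, the highest mean of Dlx6 lay from 0.6 to 0.8 (58.8 CPM) and that of Sp7 from 0.9 to 0.95 (142 CPM). Msx1 went from 27.1 and 33.6 CPM to 58.9 and 70.4 CPM from 0.6 to 0.8 and then to 18.8 and 14.6 CPM in the highest bin. Dlx5, Dlx6 and Msx1 thus each had an interior peak of their mean CPM, with the highest bin made of 31 and 74 preosteoblast-like and 14 and 61 osteoblast-like cells. Dlx3 stood at 30.01 and 19.9 CPM in the highest bin, against 1.86 and 5.83 CPM in the bin before it. In CPM Atf4 was lower from 0.6 to 0.95 (189 to 214 CPM in Mouse #1 and 199 to 216 CPM in Mouse #2) than below 0.4 (258 to 297 and 222 to 242 CPM), with 206 and 253 CPM in the highest bin. In UMIs per cell Atf4 was instead higher from 0.6 to 0.95 (3.51 to 4.29) than below 0.4 (2.96 to 3.07) in Mouse #2. In Mouse #1 these ranges overlapped (3.07 to 4.26 and 3.37 to 3.99).

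**Figure D3:**
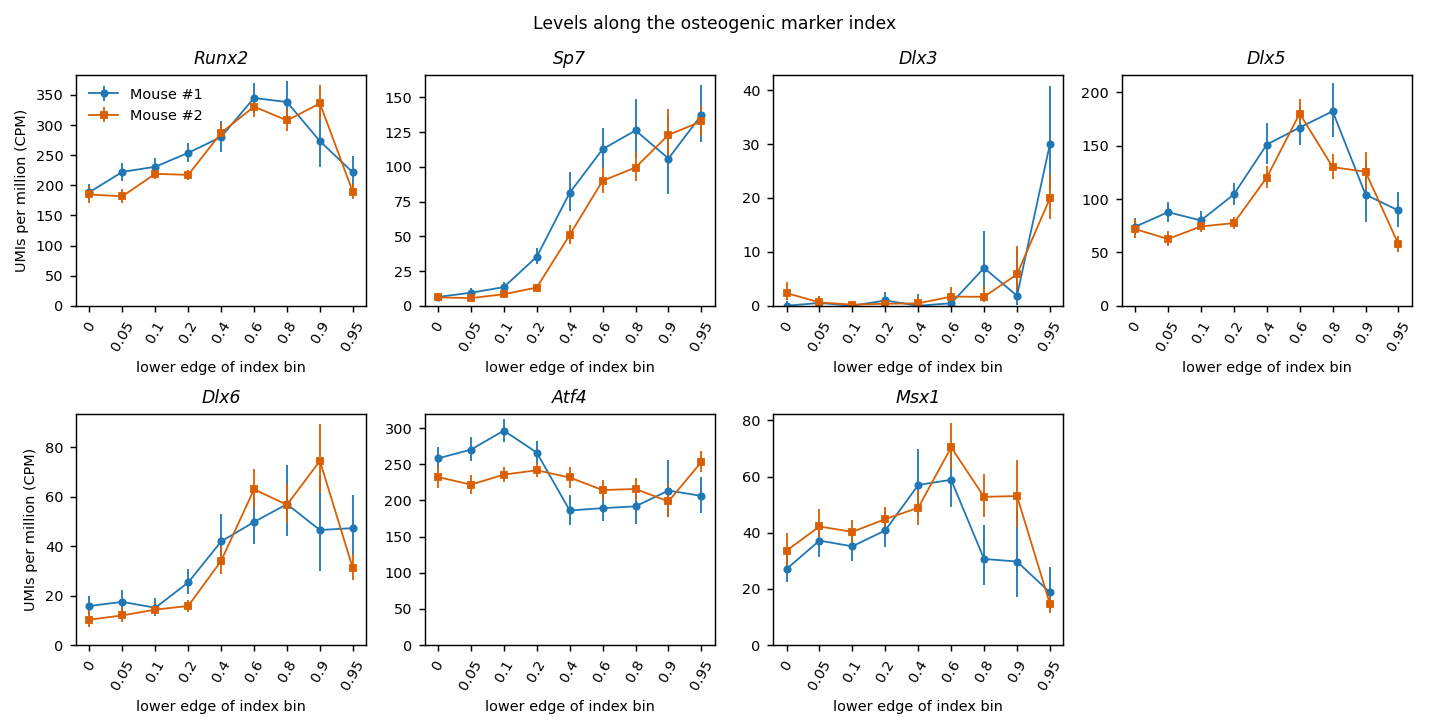
Levels of 7 genes (CPM, vertical axis) in 9 bins of the osteogenic marker index (lower bin edge on the horizontal axis) in Mouse #1 (circles) and Mouse #2 (squares), with 95% Poisson intervals. Sp7 went from 6.32 and 6.03 CPM in the lowest to 137 and 133 CPM in the highest bin, Runx2 in CPM was highest between, and Dlx3 stood out in the highest bin.

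The preosteoblast-like class split at a finer clustering into clusters that were described but not tested, since they were picked after their values were seen. A cluster led by A430027H14Rik, Kcnk2 and Slc20a2 (220 and 273 cells) held Runx2 at 384 and 424 CPM, Sp7 at 152 and 130 CPM, Dlx5 at 231 and 220 CPM and Dlx6 at 72.2 and 70.6 CPM. The cluster led by Npy, Spp1 and Omd (182 and 509 cells) held Runx2 at 248 and 287 CPM, Sp7 at 82.3 and 87.0 CPM, Dlx5 at 107 and 125 CPM and Dlx6 at 30.3 and 51.7 CPM. All 4 genes were thus higher in the former cluster of both mice, and Atf4 was lower there, at 132 and 163 CPM against 248 and 230 CPM. Median depths of the 2 clusters were 11237 and 20012 UMIs, and the part of depth in these levels was not tested.

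Within the reticular-like class the members also varied between clusters. Dlx6 ranged from 8.55 and 7.75 CPM in the cluster led by Ccl2 and Tnfsf11 to 29.3 CPM in the cluster led by Bmp4 in Mouse #1 and 20.5 CPM in the heat shock cluster in Mouse #2. Sp7 was highest in the Bmp4 cluster of both mice, at 16.1 and 11.3 CPM. Dlx5 was highest in the heat shock cluster, with 114 and 107 CPM, and Atf4 in the cluster led by Lsmem1 and Rgs16, with 346 and 262 CPM. Runx2 varied less, between 196 and 255 CPM over these 4 clusters and both mice.

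**Figure D4:**
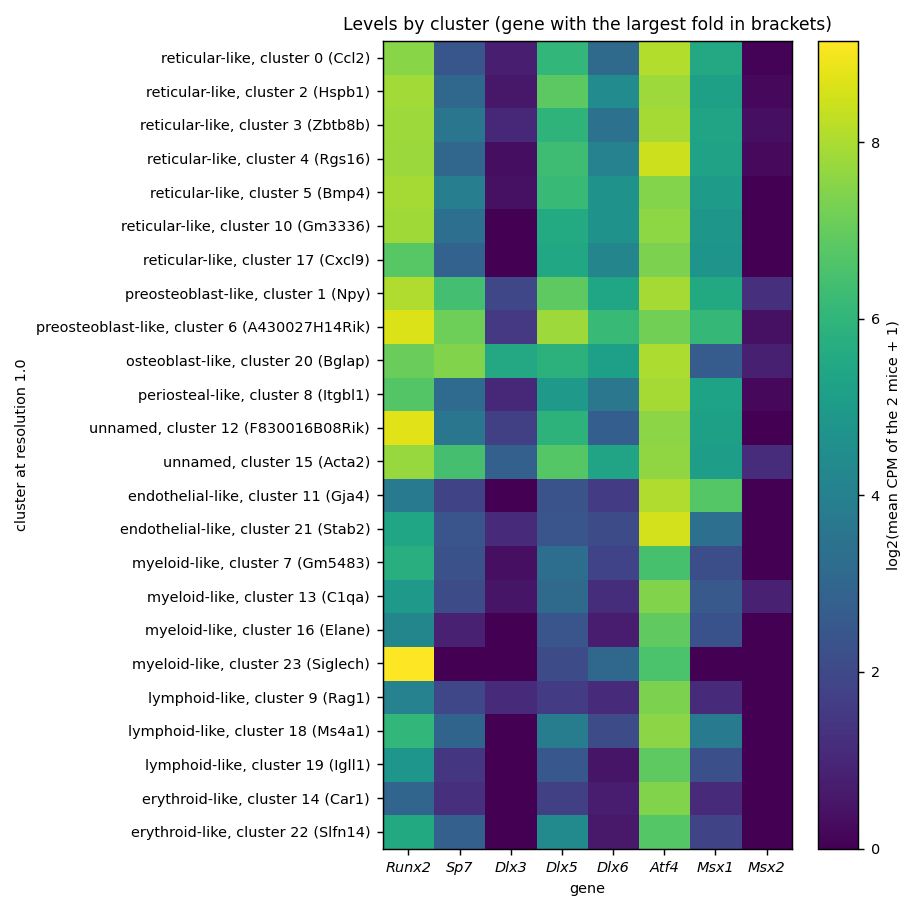
Mean level of the 2 mice as log2(CPM + 1), by color, for the 8 genes (columns) in 24 clusters at the finer clustering (rows, named by class and leading gene). The preosteoblast-like cluster led by A430027H14Rik was brightest for Dlx5 and bright for Runx2, the osteoblast-like cluster led by Bglap alone stood out for Dlx3, and the endothelial-like cluster led by Gja4 was brightest for Msx1.

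The step from preosteoblast to osteoblast cells was tested in the same fit, which it shares with the step before it through the preosteoblast-like sums. Dlx3, Sp7 and Atf4 rose, while Msx1, Dlx5 and Runx2 fell, 6 of the 7 members tested, where 34.6% of all tested genes were called (1978 higher and 2228 lower). Dlx3 rose by 4.72 ± 0.41 (SE; edgeR adjusted p 3.62e-05), Sp7 by 1.47 ± 0.15 (edgeR adjusted p 0.00011) and Atf4 by 1.09 ± 0.16 (edgeR adjusted p 0.000842) on the log2 scale. Msx1 fell by 2.02 ± 0.38 (edgeR adjusted p 0.00308; -3.66 in Mouse #1, from 1 UMI, and -1.86 in Mouse #2), Dlx5 by 0.62 ± 0.17 (edgeR adjusted p 0.0205) and Runx2 by 0.44 ± 0.14 (edgeR adjusted p 0.0398). Dlx6 did not pass the test, at 0.01 with an interval of -0.53 to 0.55, and its mice moved in opposite directions (0.64 and -0.34). The median of the members was 0.01, beside -0.17 over all tested genes, and the osteoblast-like sums rested on 14 and 61 cells.

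The values of this step depended on the scale, and a few genes took up much of the osteoblast RNA. The 10 most abundant genes, led by Col1a1, held 43.5% and 36.3% of osteoblast-like UMIs, against 15.4% and 15.6% of preosteoblast-like UMIs. As a ratio of osteoblast-like to preosteoblast-like CPM, Runx2 stood at 0.425 and 0.442, after TMM scaling at 0.714 and 0.746, and in UMIs per cell at 0.942 and 1.10. Runx2 thus fell as a share of the sampled RNA, while a cell of either class held about the same number of its UMIs (5.08 and 5.64 against 4.79 and 6.18). Dlx5 likewise went from ratios of 0.381 and 0.397 in CPM to 0.843 and 0.985 in UMIs per cell.

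Sp7 was higher in osteoblast-like cells on all 3 scales, with ratios of 1.60 and 1.71 in CPM, 2.69 and 2.88 after TMM scaling and 3.55 and 4.24 in UMIs per cell. Dlx3 was higher on all of them too, from 24.5 and 11.2 in CPM to 54.2 and 27.7 in UMIs per cell. Atf4 had ratios of 1.18 and 1.31 in CPM and 2.61 and 3.26 in UMIs per cell. The direction of Dlx6 turned with the scale, at 0.934 and 0.468 in CPM, 1.57 and 0.790 after TMM scaling and 2.07 and 1.16 in UMIs per cell. Msx1 was lower on every scale, at 0.0403 and 0.159 in CPM and 0.0892 and 0.395 in UMIs per cell. In a fit with library size in place of TMM, 7688 genes were called, only 787 of them higher, and the median over all genes was -0.93. In that fit Atf4 was not called (0.34, edgeR adjusted p 0.0777) and Dlx6 was called lower (-0.75, edgeR adjusted p 0.0223), and Runx2 was not called in a fit of these 2 classes alone (-0.34, edgeR adjusted p 0.131).

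**Figure D5:**
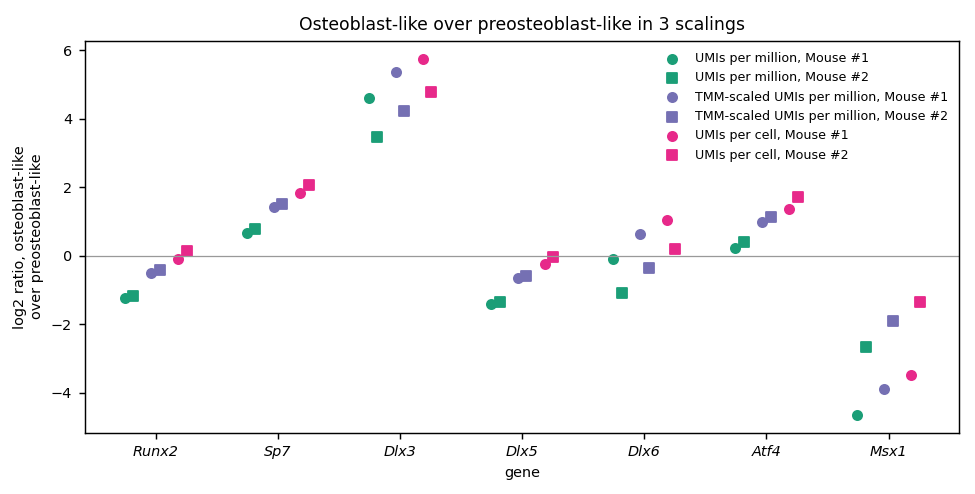
Log2 ratio of osteoblast-like over preosteoblast-like levels for 7 genes on 3 scales (color), for Mouse #1 (circles) and Mouse #2 (squares), with no error bars. Sp7, Dlx3 and Atf4 lay above 0 and Msx1 below 0 on every scale and in both mice, while Runx2 moved from ratios of 0.425 and 0.442 in CPM to 0.942 and 1.10 in UMIs per cell.

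Among the family relatives 4 of 12 were higher and 4 lower in osteoblast-like cells (66.7% called beside 34.6% of all tested genes). Runx1 fell by 2.28 on the log2 scale, while the stress-responsive factor Atf3 rose by 2.19, Sp6 by 1.24 and Sp2 by 1.01. Of the 17 partners and inhibitors of Runx2, 2 were higher and 7 lower (52.9% called beside 34.6%). Hey1 fell by 2.67 and the histone deacetylase Hdac4 by 1.502. Twist2 had no UMI in the osteoblast-like cells of either mouse, against 3.75 and 2.72 TMM-scaled CPM in preosteoblast-like cells. In Mouse #1 the lack of UMIs allows a level of up to 5.74 CPM before TMM scaling, so an absence could not be told at this depth.

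The other lineage factors divided, with 4 of 20 higher and 6 lower (10 of 20 called beside 34.6% of all tested genes). Creb3l1, an endoplasmic reticulum stress transducer that serves collagen secretion, rose by 3.40 and Tcf7 by 2.95, while Snai2 fell by 3.41 and Ets1 by 2.98. The Atf4 target genes were higher in 7 of 16 cases with none lower, 43.75% called and not far from the 34.6% of all tested genes. Their median was 1.03, beside -0.17 over all tested genes. The largest rises were those of Chac1 at 3.79, Psat1 at 3.59, Nupr1 at 3.34 and the mitochondrial folate enzyme Mthfd2 at 3.20. The reticular and adipocyte factors fell in 8 of 9 cases (88.9% called), and their median was -2.66. Among them Ebf3 was down by 3.67, Foxc1 by 2.96, Pparg by 2.80 and Ebf1 by 2.71.

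Periosteal-like cells held less Runx2 and Dlx5 than reticular-like cells. These were the only 2 of the 7 members called in this comparison, where 21.3% of all tested genes were called. Dlx5 was lower by a log2 fold change of -1.24 ± 0.17 (SE; edgeR adjusted p 0.000862) and Runx2 by -0.99 ± 0.14 (edgeR adjusted p 0.00102), each in both mice. Sp7 differed by 0.02 ± 0.25 with an interval of -0.54 to 0.57, and Atf4 by 0.01 ± 0.16 with an interval of -0.34 to 0.37. Dlx6 (-0.37), Dlx3 (1.33, from 1 and 5 UMIs in periosteal-like cells) and Msx1 (0.23) did not pass the test either. The median of the members was 0.01, beside -0.01 over all tested genes.

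Against preosteoblast-like cells the periosteal-like cells were lower in 4 of the 7 members, where 20.9% of all tested genes were called. Sp7 was lower by -3.57 ± 0.21 (SE; edgeR adjusted p 1e-05), Dlx5 by -2.17 ± 0.17 (edgeR adjusted p 3.19e-05), Dlx6 by -2.07 ± 0.25 (edgeR adjusted p 0.000448) and Runx2 by -1.45 ± 0.14 (edgeR adjusted p 0.000115) on the log2 scale. The preosteoblast markers of these classes were of like summed level, as given above, in a sum that includes the Col1a1 abundant in periosteal-like cells. Msx1 (-0.18 ± 0.25), Dlx3 (-0.91 ± 0.68) and Atf4 (0.37 ± 0.16, edgeR adjusted p 0.137) did not pass the test, and DESeq2 called Atf4 higher (0.44, DESeq2 adjusted p 0.0356). The median of the members was -1.45, beside -0.05 over all tested genes. The comparison shares its periosteal-like sums with the one before it.

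Other lineage factors set the periosteal-like cells apart in both directions. Against reticular-like cells 6 of 20 were higher and 6 lower (12 of 20 called beside 21.3% of all tested genes). Prrx2, a homeodomain factor of limb mesenchyme, was higher by 4.11 and Nfatc2 by 2.42, while Snai2 was lower at -2.37 and Fosl1 at -2.18. Against preosteoblast-like cells 4 were higher and 8 lower (12 of 20 called beside 20.9%), with Lef1 at -3.32, Fosl1 at -2.67 and Prrx2 at 2.67. The inhibitor Zfp521 was higher than in either class (1.71 and 0.80), as was Wwtr1, a Hippo pathway partner of Runx2 (0.91 and 0.69), while Hey1 was lower than in either (-1.07 and -3.09). Hdac4 was higher than in reticular-like cells (1.22) and Twist2 higher than in preosteoblast-like cells (2.34). Of the 17 partners, 4 were higher and 2 lower against reticular-like cells (35.3% called beside 21.3%). Against preosteoblast-like cells 5 were higher and 1 lower (35.3% called beside 20.9%).

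The family relatives counted 1 higher and 1 lower of 12 against reticular-like cells (Atf5 0.97 and Runx1 -1.21, 16.7% called beside 21.3%) and 1 higher and 2 lower against preosteoblast-like cells (Atf5 1.18, Sp6 -3.49 and Runx3 -0.72, 3 of 12 called beside 20.9%). Of the 16 Atf4 targets, 2 were higher and none lower against reticular-like cells (Slc7a5 2.32 and Asns 1.33, 12.5% called beside 21.3% of all tested genes), and 2 were higher and 1 lower against preosteoblast-like cells (Nupr1 1.37, Slc3a2 0.91 and Vldlr -2.83, 18.8% called beside 20.9%). The reticular and adipocyte factors were lower in 5 of 9 cases and higher in 1 against reticular-like cells (Cebpa -2.68, Ebf3 -2.04, Pparg -1.90 and Klf4 1.60, 66.7% called beside 21.3%). They were lower in 3 of 9 cases against preosteoblast-like cells (Cebpa -1.56, Ebf3 -0.89 and Ebf1 -0.49, 33.3% called beside 20.9%).

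Whether reticular cells marked through Cxcl12-creER differed in these factors was asked with tdTomato. A cell was tdTomato-positive above the 99th percentile of the hematopoietic cells of its mouse (8.63 and 14.6 tdTomato UMIs per 10000), which gave 498 positive and 742 negative reticular-like cells in Mouse #1 and 975 and 1430 in Mouse #2. For Sp7 the positive cells had 6.19 CPM and the negative cells 11.9 CPM in Mouse #1, and in Mouse #2 they had 5.03 and 8.38 CPM. Dlx5 stood at 76.2 and 84.0 CPM in Mouse #1 and 54.0 and 80.9 CPM in Mouse #2, and Msx1 at 31.2 and 35.8 CPM and at 34.5 and 45.0 CPM. Runx2 stood at 211 and 234 CPM in Mouse #1 and at 194 and 217 CPM in Mouse #2. All 4 genes were lower in positive cells of both mice, and the levels of positive and negative cells did not overlap. Of all tested genes, 21.7% were likewise lower with no overlap, and 0.0% were called.

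In the fit without a block for mouse, 0 of the 6 members tested and 0.0% of all 12187 genes were called by edgeR, with 447 genes at an unadjusted p under 0.05. DESeq2 called 4 genes. The log2 fold changes were -0.82 ± 0.24 for Sp7, -0.32 ± 0.16 for Dlx5, -0.27 ± 0.14 for Msx1, -0.16 ± 0.19 for Dlx6, -0.13 ± 0.08 for Runx2 and -0.01 ± 0.12 for Atf4. With the replicate block, since positive and negative cells came from the same animals, 5.37% of genes were called and so were 3 members. Sp7 was then lower by -0.80 ± 0.19 (edgeR adjusted p 0.00132), Dlx5 by -0.35 ± 0.06 (edgeR adjusted p 2.12e-06) and Msx1 by -0.28 ± 0.08 (edgeR adjusted p 0.0129), while Runx2 was not called (edgeR adjusted p 0.207).

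A somewhat smaller share of tdTomato-positive than of negative cells lay high on the marker index in both mice. The gap between the mice was wider, and the difference was not tested. Of positive cells, 18.4% in Mouse #1 and 39.2% in Mouse #2 lay above an index of 0.2, against 23.6% and 41.6% of negative cells. When both sets were limited to an index of at most 0.2, none of the members passed with the block, at -0.37 for Sp7 (edgeR adjusted p 0.546), -0.36 for Dlx5 (edgeR adjusted p 0.178) and -0.27 for Msx1 (edgeR adjusted p 0.293), where 83 genes were called. The Dlx5 and Msx1 values were close to those over all cells, and the Sp7 value was less than that over all cells.

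The genes whose profile over clusters was most like that of each member were named by the lower of the 2 mice's Pearson correlations of log2(CPM + 1), over 16 clusters with at least 20 cells in each mouse and 12897 genes. The clusters share their 2 libraries, include hematopoietic, endothelial-like and unnamed clusters and exclude the osteoblast-like cells, so these are descriptions. A likeness over them need not hold within the osteoblast series. From reticular-like to preosteoblast-like cells, for example, Runx2 rose by 0.46 while Runx1 changed by -0.97 on the log2 scale. Runx2 was most like Runx1 (0.943), Hoxc6 (0.942) and Lacc1 (0.941), and Sp7 was most like the phosphate carrier Slc20a2 (0.944), Wif1, a secreted Wnt inhibitor (0.919), and Vldlr (0.909). Dlx5 was most like Fibin (0.937), Loxl3 (0.934) and Steap2 (0.933), and Dlx6 most like Smarcd3 (0.911), 1190002N15Rik (0.910) and Sdc2 (0.908). Msx1 was most like Tmem47 (0.928), Ankrd29 (0.915) and Kank2 (0.896), and Atf4 most like Alkbh5 (0.877), Tob2 (0.873) and Sbds (0.868). Dlx3, with few UMIs outside the osteoblast-like cells, had its closest genes at 0.836 (Arhgef19), 0.780 (4833422C13Rik) and 0.716 (Chn1), and Msx2 had too few UMIs for a profile.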

How the data were processed

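Single-cell RNA-seq was analysed for the 2 Cxcl12-GFP+ libraries. The authors deposited raw UMI counts per gene and barcode, with all barcodes present. Per the file headers these were made with Cell Ranger 3.0.0, and the submitters' processing notes name Seurat and mm10. The annotation and strand setting were not given in the sources used here. Unfiltered free RNA, and reads shared between genes and antisense transcripts, can raise low counts. Columns of samples outside the series numbered 0.

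Cells had 1000 genes or more and 15% or less of UMIs from mitochondrial genes. Counts scaled to 10000 and log-transformed gave 2000 variable genes, without the members and the other fixed lists (92 genes), 30 principal components, 15 neighbors and Leiden clusters at resolution 0.5, or 1.0 as the finer clustering (scanpy 1.11.5, leidenalg 0.10.2, Python 3.11.15). A cluster took the class with the most raised markers (1.5 times the mean of other clusters, in 10% of its cells, at least 3 of them), followed by "-like". It stayed unnamed when shallow or when another class led its top 10 genes. These names are not the study's own, and differences from its classes may reflect that. Doublets were kept, since the Scrublet automatic threshold marked 0.218% and 0.0655% of cells and had not worked.

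CPM are UMIs of a gene per 1000000 UMIs of a class and mouse. Sums per mouse and class were tested with the edgeR 4.0.16 quasi-likelihood test in R 4.3.3 (TMM, filterByExpr, Benjamini-Hochberg, call at an adjusted p under 0.05), over the 4 skeletal classes in 1 fit without a block. Changes are relative to the TMM scaling. Samples were paired by animal, as each mouse gave both sides of every comparison. Deviations of same-mouse sums from the class means correlated at 0.311, 0.0767, 0.194 and 0.162 across genes for the class comparisons, in their order above, and at 0.514 for tdTomato. With 2 mice per side, the p-values rest on the spread between the mice within classes. That spread was estimated over all classes in the fit and drawn toward that of other genes. Without a block, the pairing by animal does not enter it. On simulated preosteoblast-like and reticular-like counts, the test recovered 79.2% of 96 genes changed by 1 and 100% of 98 genes changed by 2 on the log2 scale, with 8 false calls among 11821 genes. The sums of all 4 classes were drawn independently around 1 shared mean, with 1 set spread for every gene and no effect of mouse. Apart from the changed genes they held no class differences, so these rates need not hold for the real data. The members and lists were chosen with earlier results of these data known. All members are named, and from each other list up to 4 called genes with the largest change and 1 direction in both mice, some of which are not reported here. The symbols Cebpd and Snorc of the lists were not found among the features. Shares have 95% Wilson intervals and counts Poisson intervals, for counting error only. The floor for 0 UMIs was 3 UMIs. Alternatives were DESeq2 1.42.0 and its size factors, library size, no filter, the replicate block, stricter cells and the finer clustering. Further ones were removal of the highest Scrublet scores (60 and 168 cells), other thinning and tdTomato thresholds, a marker index without Col1a1, and each mouse alone.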

Additional observations from a re-analysis of the deposited data

Results flagged for a closer look

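Each of the following is a signal of 1 member in cells that entered none of the comparisons, above its level in hematopoietic cells as a whole. Runx2 reached its highest level of all clusters in a small cluster led by Siglech, a marker of plasmacytoid dendritic cells, with a mean of 567 CPM (666 CPM from 6 cells of Mouse #1 and 468 CPM from 11 cells of Mouse #2), against a mean of 29.7 CPM in hematopoietic cells. Msx1 reached a mean of 107 CPM in the endothelial-like cluster led by Gja4, an arterial gap junction gene (112 and 102 CPM in 122 and 109 cells), against 4.34 and 14.0 CPM in the endothelial-like cluster led by Stab2 and a mean of 3.38 CPM in hematopoietic cells. Sp7 stood at a mean of 91.0 CPM in an unnamed cluster led by Acta2 and genes of mitosis (96.9 and 85.1 CPM in 66 and 83 cells), against a mean of 2.39 CPM in hematopoietic cells. That cluster raised 7 of the 8 preosteoblast markers. These clusters were picked after their values were seen, and none of the differences was tested.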

How the results depend on the processing

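The number of members called ranged from 4 to 6 for preosteoblast-like against reticular-like, from 5 to 6 for osteoblast-like against preosteoblast-like and from 4 to 5 for periosteal-like against preosteoblast-like cells, and was 2 under every alternative for periosteal-like against reticular-like cells. For tdTomato it went from 0 to 3 with the replicate block (genes from 0 to 655), and the block changed no member's call in the comparisons of classes. Leaving out 1 mouse leaves no replicate, so it gave values without a test and no counts. Library size only, leaving out the reticular-like clusters 2 and 3, and the limit on the index were chosen after seeing the data. With library size only, 7688 genes were called in osteoblast-like against preosteoblast-like cells (787 higher, against 1978 of 4206), and 1268 of 2834 were higher in periosteal-like against preosteoblast-like cells (against 1497 of 2546). Msx2 rose in preosteoblast-like cells where it was tested, by 3.30 without the filter (edgeR adjusted p 0.000561) and 3.37 in the fit of 2 classes (edgeR adjusted p 0.0111).

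The fold changes that reversed, on the log2 scale, had not been called. Dlx6 in osteoblast-like against preosteoblast-like cells was -0.75 with library size only, -0.055 without the filter, -0.0016 with the replicate block, -0.029 at the finer clustering, -0.022 without the highest Scrublet scores, and between -0.34 and 0.64 with 1 mouse left out. In periosteal-like against reticular-like cells, Atf4 was -0.063 with library size only, -0.029 without the filter, -0.0082 at the finer clustering and between -0.049 and 0.085 with 1 mouse left out. Sp7 there was -0.055 with library size only, -0.023 without the filter, -0.047 without the highest Scrublet scores, -0.16 without clusters 2 and 3 and between -0.12 and 0.18 with 1 mouse left out. Msx1 there lay between -0.092 and 0.34 with 1 mouse left out. Atf4 in tdTomato-positive cells was 0.079 at the higher tdTomato threshold and between -0.031 and 0.013 with 1 mouse left out. The cause was not tested. In the lists, the called Atf4 targets of periosteal-like cells went from 2 to between 4 and 5 against reticular-like cells without the filter, with the replicate block or in the fit of 2 classes, and from 3 to 6 without the filter and 5 with the block against preosteoblast-like cells, where the called reticular and adipocyte factors went from 3 to 5 under both. Called family relatives went from 3 to 6 in preosteoblast-like against reticular-like cells in the fit of 2 classes, from 2 to 4 in periosteal-like against reticular-like cells with library size only and from 3 to 5 against preosteoblast-like cells without the filter. Of the fold changes under other settings than leaving out a mouse, 306 kept direction and call, 13 reversed and 8 crossed the threshold in their direction. Of the shares of cells, 107 moved by less than the spread between the mice and 85 by more, mostly without thinning or at 1000 UMIs. Depth limits Msx2 and Dlx3 most.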

Other observations

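Members outside the osteoblast series were mostly near the hematopoietic level in endothelial-like cells, with Sp7 at 2.10 and 4.19 CPM, Dlx5 at 2.62 and 5.76 CPM and Dlx6 at 1.05 and 3.67 CPM, and Dlx3 with 0 and 1 UMIs. Msx1 was detected in 14.0% and 13.1% of these cells at 2000 UMIs per cell, against 6.39% and 7.21% of reticular-like and 0.277% and 0.423% of hematopoietic cells. Atf4 was highest in the endothelial-like cluster led by Stab2, a gene of sinusoidal endothelium, at 375 and 364 CPM.

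A shallow unnamed cluster (56 and 140 cells, median depth 3154 UMIs) held Runx2 at 381 and 455 CPM, Sp7 at 10.9 and 4.42 CPM and Dlx5 at 65.2 and 53.0 CPM. The barcodes of 1 to 100 UMIs held Dlx5 at 57.7 and 68.3 CPM, Dlx6 at 17.3 and 25.9 CPM, Atf4 at 210 and 199 CPM, Msx1 at 27.0 and 29.0 CPM and Dlx3 at 3.30 and 3.32 CPM. Runx2os1, annotated across Runx2 on the other strand, stood in reticular-like cells at 6.17 and 4.38 CPM and in the preosteoblast-like class at 6.81 and 3.96 CPM.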
